A study of Mus musculus with 22 samples.

Results

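The untreated duodenal organoids of the study were described on their own. Organoids are cultures that grow from adult intestinal stem cells into hollow buds with crypt-like domains. Of 22 sequenced libraries in the series, 4 came from cultures whose treatment was given as none, and these 4 libraries were the only ones used. The other 18 libraries came from cultures exposed to cold atmospheric plasma or to plasma-treated medium.

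Each library was from 1 culture of a separate line, and each line came from 1 wild-type adult mouse of the outbred CD1 strain. No line carried a transgene or a deletion. The lines are numbered here in the order of the samples. Line 1 was at passage 12, line 2 at passage 14, and lines 3 and 4 at passage 4. By the study's methods lines 1 and 2 were from males and lines 3 and 4 from females, and the methods listed a lower passage for lines 3 and 4 than the labels did. All cultures grew in Matrigel in medium with EGF, Noggin, R-spondin 1, N2, B27 without vitamin A and N-acetyl cysteine. They received the kinase inhibitor Y-27632 for the first 2 days after replating and were taken at day 3. With 1 library per line, the spread between libraries holds animal, passage, sex, culture and library preparation together.

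The small intestinal epithelium is renewed from stem cells at the crypt base that carry the R-spondin receptor Lgr5. Wnt and Notch signals hold these cells in place, and their daughters divide, leave the crypt and mature. Absorptive enterocytes digest and take up nutrients, goblet cells secrete mucus, Paneth cells secrete antimicrobial proteins and supply niche signals, and rare enteroendocrine and tuft cells sense the lumen. The labels gave the cell type as stem cells and the tissue as epithelium of the duodenum.

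Values in the table deposited by the authors were read counts scaled to 20000000 per library and rounded up, so 1 unit is close to 1 read. The spacing of the low values put the depth at 20720000 to 26000000 counted reads per library. Between 24995 and 26971 genes had a value above 0, and 17120 genes reached a value of 10 in at least 2 libraries. Levels of different genes were compared only after division by exon length, scaled to a total of 1000000 per library, given as TPM. A value of 0 allows up to 3 reads, which is a value of at most 2.90. Such limits cover counting error only.

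The epithelial identity of the cultures was clear in every line. The 17 genes of the epithelial list, among them keratins, claudins and intestinal transcription factors, summed to 11781, 11248, 12172 and 11891 TPM in lines 1 to 4. Epcam, an adhesion protein of epithelia, stood at 993 ± 27.3 TPM (mean ± SD, n = 4, as throughout), and Krt8 and Krt19, keratins of simple epithelia, at 2097 ± 167 and 2185 ± 151 TPM. Hnf4a, a master regulator of intestinal and liver genes, had values of 20196, 18697, 17760 and 18232. Cdx2, which specifies the intestine, had values of 3681, 3436, 2947 and 3298. The 4 lines lay close together for each of these genes. Of the 17 members 16 (94.1%) differed by less than 1.5-fold between the highest and the lowest line. The share was 65.4% over the 17120 genes and 85.0% over genes with a mean value of 100 or more.

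Markers of the cell types that surround the epithelium in the gut were mostly near or at 0. The 14 mesenchymal genes summed to between 6.99 and 8.41 TPM, of which Tagln alone made up 74.7%, and Lum and Thy1 were at 0 in every line. The 9 endothelial genes summed to between 2.82 and 5.44 TPM, with Cdh5 and Emcn at 0. Nerve and glial genes summed to between 5.94 and 8.61 TPM and erythroid genes to between 1.01 and 2.29 TPM. The immune list summed to 113 ± 21.5 TPM, but Cd14, a receptor for bacterial lipopolysaccharide, made up 68.0% of it and Ptprc, the pan-leukocyte marker, had values of 5, 0, 12 and 2. Cd4, the helper T cell marker, and Cpa3, of mast cells, were at 0. Cd74, the invariant chain of class II antigen presentation, had values of 13, 8, 48 and 5, with line 3 the highest. Of the muscle list only Acta1, skeletal actin, had more than single reads, with values of 604, 559, 894 and 723.

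Regional genes matched the proximal small intestine in part. Pdx1, a factor of the duodenum and pancreas, had values of 1276, 1367, 1179 and 1376. Gata4, which marks the proximal bowel, had values of 4429, 4657, 4461 and 4744. Onecut2, another proximal factor, had values of 5950, 6391, 6262 and 6477. These 3 transcription factors differed little between lines, and they contrasted with the colonic genes Hoxb13, Hoxd13 and Car1, which were at 0 in all 4 lines. The bile acid carrier of the ileum, Fabp6, had values of 6, 0, 4 and 2. Brunner's gland genes of the duodenal submucosa were low, with Muc6 at 25, 33, 48 and 24 and Tff2 at 8, 7, 18 and 34. The ferric reductase Cybrd1, which serves duodenal iron uptake, had values of 1333, 1252, 482 and 1600 and was lowest in line 3.

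The absorptive programme was the largest of the cell type programmes. The 26 enterocyte genes summed to 13110, 14559, 13158 and 12444 TPM, or 1.33% of the transcriptome on average, with a coefficient of variation (CV) of 6.68%. Paneth cell genes followed at 8151, 6216, 5874 and 6588 TPM, goblet cell genes at 6553, 4856, 4689 and 5478 TPM, and crypt base stem cell genes at 2677, 2176, 2592 and 2473 TPM. Genes of S phase and of G2 and mitosis summed to 1085 ± 107 and 1145 ± 113 TPM. Enteroendocrine genes were far lower at 296 ± 78.3 TPM. The lists differ in length and in the strength of their genes, so a sum says how much RNA its genes held, not how many cells of a type were there. Without division by length the Paneth cell list lay below the goblet and stem cell lists. In these bulk libraries fewer cells of a type and less RNA per cell cannot be told apart.

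**Figure D1:**
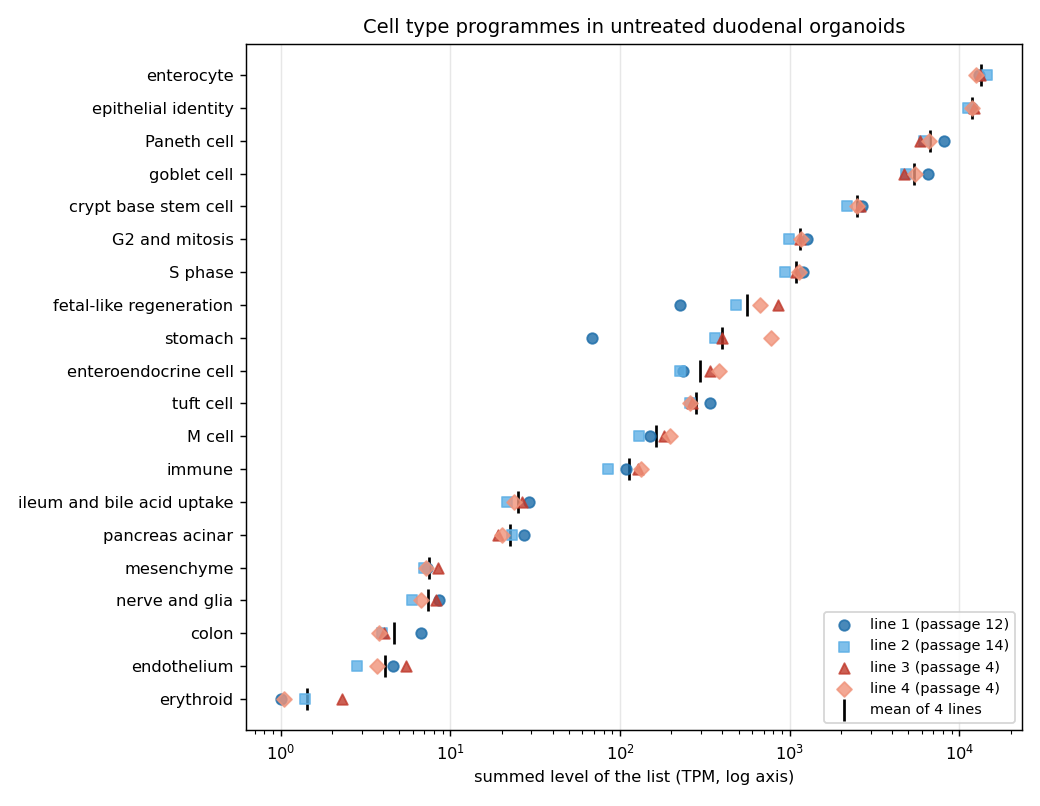
Summed level of each gene list in TPM (log axis) in the 4 untreated lines, 1 point per line, with a bar at the mean of the 4. Enterocyte, Paneth, goblet and stem cell lists are the highest cell type lists in every line, stomach and fetal-like genes spread most and are lowest in line 1, and the mesenchymal, nerve, endothelial and erythroid lists lie under 10 TPM. The muscle list, 59.8 ± 12.9 TPM and nearly all Acta1, is not drawn.

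Among enterocyte genes, those of fat and retinoid handling were high. The apolipoproteins Apoa1 and Apoa4 stood at 1521 ± 198 and 1294 ± 182 TPM, the fatty acid carrier Fabp2 at 1352 ± 231 TPM and the retinol carrier Rbp2 at 1142 ± 78.0 TPM. The brush border phosphatase Alpi had values of 18593, 32923, 27931 and 28427. It was lowest in line 1. Sucrase-isomaltase, encoded by Sis, had values of 32230, 33758, 27677 and 32758, and maltase-glucoamylase, encoded by Mgam, 25540, 22933, 25958 and 24046. Both digestive enzymes were even across the lines. Fabp1, a second fatty acid carrier, had values of 3971, 4010, 2478 and 1580, higher in lines 1 and 2 than in lines 3 and 4. Lct, the lactase of suckling animals, was low at 179, 34, 64 and 49.

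A single enterocyte gene set line 2 apart. Dpp4, a brush border peptidase that clips incretin hormones, had values of 863, 115, 980 and 1092. Line 2 was more than 4-fold below each of the others, whereas the peptidases Anpep, with values of 5855, 4160, 7446 and 4159, and Enpep, with values of 6098, 7457, 8937 and 6077, did not single out line 2. Of the 26 enterocyte genes, 22 differed by less than 2-fold between lines and 2, Dpp4 and Lct, by more than 4-fold. Among all 17120 genes, 14110 differed by less than 2-fold and 615 by more than 4-fold.

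The sequence just upstream of these genes was examined because the leading enterocyte genes are known targets of HNF4 factors, which were abundant here. The motif CAAAGTCCA, an HNF4-type site, was searched on both strands in the 300 bases from 250 before to 50 after each transcription start (RefSeq, build GRCm38.p6). It was present in 0.475% of 32851 promoters. Of 23 promoters of enterocyte genes 3 held it, those of Alpi, Treh and Cyp3a11. It was in 1 of 16 promoters of Paneth cell genes, that of Wnt3, in 0 of 22 of stem cell genes and in 0 of 17 of G2 and mitosis genes. The 3 promoters are shown 5′ to 3′ on the strand of the gene, with the motif, or its reverse complement in Treh, in capitals. They lie at chr1:87101557-87101856 (minus strand, Alpi), chr9:44672983-44673282 (plus strand, Treh) and chr5:145879805-145880104 (minus strand, Cyp3a11).
Alpi: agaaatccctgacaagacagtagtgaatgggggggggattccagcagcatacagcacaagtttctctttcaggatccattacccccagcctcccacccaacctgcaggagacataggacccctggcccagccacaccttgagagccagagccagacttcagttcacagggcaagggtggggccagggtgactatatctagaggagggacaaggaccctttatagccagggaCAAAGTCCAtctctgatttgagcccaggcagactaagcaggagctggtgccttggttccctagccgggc
Treh: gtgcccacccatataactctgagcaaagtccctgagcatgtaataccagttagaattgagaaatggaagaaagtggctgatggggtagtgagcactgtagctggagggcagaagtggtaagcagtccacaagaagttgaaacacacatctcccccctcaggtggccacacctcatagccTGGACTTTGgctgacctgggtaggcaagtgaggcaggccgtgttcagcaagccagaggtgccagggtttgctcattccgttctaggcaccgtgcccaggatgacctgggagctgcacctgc
Cyp3a11: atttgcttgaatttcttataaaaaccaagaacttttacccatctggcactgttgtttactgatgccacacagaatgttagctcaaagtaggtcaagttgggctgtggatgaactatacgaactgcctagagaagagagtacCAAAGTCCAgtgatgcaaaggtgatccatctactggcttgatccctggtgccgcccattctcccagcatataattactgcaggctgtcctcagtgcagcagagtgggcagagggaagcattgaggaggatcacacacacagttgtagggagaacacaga
Counted from the transcription start, the first base of the motif was at position -19 in Alpi, -71 in Treh and -109 in Cyp3a11. Treh, the trehalose-splitting enzyme, had values of 2932, 3224, 2070 and 2023, and Cyp3a11, a drug-metabolizing cytochrome, 8095, 13178, 11944 and 6694. The 3 genes did not order the lines alike. The letters TATAAA, the core of a TATA box, were in 13.6% of all promoters, in 10 of the 23 enterocyte promoters, in 5 of 16 Paneth cell promoters and in 0 of 17 promoters of each of the cell cycle lists. The GATA-type letters AGATAA were in 11.2% of all promoters and 5 of the enterocyte ones, and the CDX-type letters TTTATGG in 2.75% of all and 1 enterocyte promoter, that of Fabp1. TATAAA and AGATAA can share letters. Such matches are descriptions of sequence and were not tested as sites.

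Paneth cell products were the next group. Lyz1, the Paneth lysozyme, had values of 20706, 17237, 15293 and 15122. Defa24, an antimicrobial alpha-defensin, had values of 5842, 5262, 4803 and 5703, and the lectin Itln1 had 10963, 9370, 8393 and 11600. Per length these 3 genes led the list at 1788 ± 292, 1703 ± 167 and 1168 ± 181 TPM. Of 20 listed genes 19 passed the filter on low values, and line 1 was the highest in 14 of them, beside 24.8% of all 17120 genes in which line 1 was the highest. Alpha-defensin genes share sequence, and 90% of the 100-base windows of Defa17 recur in Defa3, so counts within the family may have been split between copies. Wnt3, the Paneth-derived niche signal, was far lower, with values of 247, 180, 185 and 170.

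Several Paneth genes differed strongly in line 3. Ang4, an antimicrobial ribonuclease, had values of 2421, 2082, 577 and 1768. Pla2g2a, a secreted phospholipase that the annotation lists as a polymorphic pseudogene, had values of 69, 37, 769 and 29. Mmp7, the protease that activates defensins, had values of 624, 437, 223 and 498. Line 3 was thus lowest for Ang4 and Mmp7 and, by more than 10-fold, highest for Pla2g2a.

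Goblet cell genes were likewise highest in line 1 for 13 of 18 members. Tff3, a trefoil peptide secreted with mucus, was the leading gene at 1919 ± 209 TPM and had values of 6763, 7152, 6486 and 8265. Fcgbp, a mucus scaffold protein, had values of 107091, 61339, 58735 and 80024. Muc2, the gel-forming mucin, had values of 11810, 4266, 4217 and 6967. For Fcgbp and Muc2 line 1 was highest and line 4 second. The lineage regulators Atoh1, with values of 637, 406, 454 and 471, and Spdef, with values of 690, 456, 455 and 431, were also highest in line 1. Klk1, a kallikrein, had values of 1358, 608, 350 and 352.

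Retnlb was the goblet gene with the largest difference. It encodes resistin-like molecule beta, a goblet cell product that acts on bacteria and worms, and lies at chr16:48816856-48818892. Its values were 1862 in line 1, 916 in line 2, 1173 in line 3 and 3 in line 4. Line 4 was thus near the limit of detection for Retnlb while it was the lowest line for only 2 other goblet genes of 18, Agr2 and Spdef, and the highest for Clca1, a secreted regulator of mucus, with values of 3270, 2171, 3339 and 4668, and for Zg16, a lectin that binds bacteria, with values of 5172, 3940, 3997 and 5440.

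**Figure D2:**
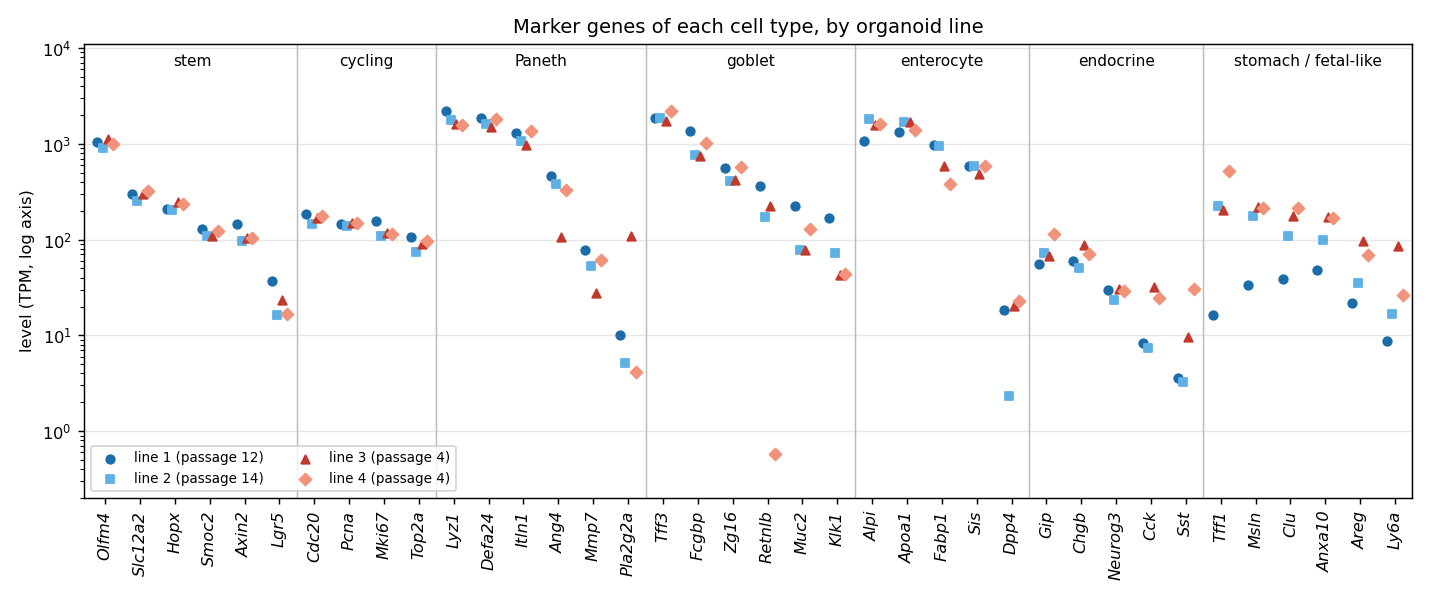
Level in TPM (log axis) of marker genes grouped by cell type, 1 point for each of the 4 lines. Markers of cycling cells have lines close together, as do the 5 stem cell markers drawn beside Lgr5, while Retnlb in line 4, Dpp4 in line 2, Ang4 and Pla2g2a in line 3 and the stomach and fetal-like genes in line 1 stand apart.

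All 22 stem cell genes passed the filter on low values. Olfm4, the most abundant marker of crypt base columnar cells, made up 41.1% of the list and had values of 22768, 20867, 25431 and 22333. Lgr5 had values of 2822, 1305, 1816 and 1281, at 23.3 ± 9.69 TPM. Smoc2, a matrix protein of the same cells, had values of 6606, 5841, 5705 and 6510. Olfm4 varied 1.22-fold and Smoc2 1.16-fold between lines, whereas Lgr5 in line 1 was more than 2-fold above lines 2 and 4. Ascl2, the stem cell transcription factor, had values of 729, 386, 416 and 497, and the Wnt target Axin2 5951, 4158, 4349 and 4316. Line 1 was the highest for 13 of the 22 genes and line 2 the lowest for 16, beside 24.8% and 27.7% of all genes.

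Proliferation genes were present at similar levels in the 4 lines. Mki67, a nuclear protein of dividing cells, had values of 11723, 8402, 8959 and 8756. Pcna, the sliding clamp of DNA replication, had values of 2600, 2567, 2741 and 2678. Top2a, which untangles chromosomes, had values of 7095, 5115, 6217 and 6571. Line 2 was the lowest for 16 of 20 S phase genes and for 18 of 20 genes of G2 and mitosis, yet 19 and 20 of them differed by less than 1.5-fold between lines. The median gene differed 1.30-fold in the first list and 1.25-fold in the second, beside 1.32-fold over all genes tested. All genes of both lists had a mean value above 100. Over genes with a mean value of 100 or more, the median was 1.23-fold and 85.0% differed by less than 1.5-fold.

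Genes of the niche signals that the medium supplied had few or no reads. Rspo1 and Nog, which encodes Noggin, were at 0 in every line. Rspo3 and Wnt3a, which were not among the medium supplements, were also at 0, and Rspo2 had a single unit in line 3. The receptor genes named next had many more reads. Lgr4, an R-spondin receptor, had values of 5861, 5597, 5863 and 5557, and Fzd5, the main intestinal Wnt receptor, 7572, 8457, 7786 and 7912. Egf had values of 24, 13, 20 and 10, while its receptor Egfr had 1522, 1297, 1629 and 1558, and Erbb2 and Erbb3, its partners, stood at 113 ± 6.49 and 231 ± 15.5 TPM. The BMP receptor gene Bmpr1a had values of 2698, 3003, 2954 and 2814. In the Notch list 7 of 11 genes that passed the filter differed by less than 1.5-fold, beside 65.4% of all genes tested. Among the 7 were the ligand Dll1 at 1640, 1849, 1899 and 1988 and the target Hes1 at 1546, 1430, 1444 and 1599. Lgr4, Fzd5, Egfr, Erbb2, Erbb3, Bmpr1a, Dll1 and Hes1 each differed by less than 1.5-fold between lines.

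Enteroendocrine genes were low. Gip, the hormone of duodenal K cells, led at 77.6 ± 25.5 TPM, followed by Chgb, a granule protein, at 67.2 ± 15.9 TPM. Gip had values of 285, 383, 354 and 594. Cck, the hormone of duodenal I cells that releases bile and enzymes, had values of 80, 75, 316 and 243. Sst, the inhibitory hormone of D cells, had values of 19, 18, 52 and 164. Neurog3, the switch that starts the lineage, was even at 370, 304, 383 and 368, and Pyy, a hormone of the distal bowel, was at 1, 0, 1 and 0. For Cck and Sst both of lines 3 and 4 lay above lines 1 and 2, and for Neurog3 they overlapped.

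Several markers of tuft and M cells had few or no reads. Of the 280 TPM of the tuft list 96.9% was Cd24a, a surface protein shared with other crypt cells. Dclk1, the tuft marker kinase, had values of 18, 7, 5 and 15, Il25 had 0, 0, 1 and 0, and Gnat3 was at 0 throughout. Trpm5, a channel of tuft cells, was above this with values of 69, 48, 65 and 69. The M cell list summed to 163 ± 30.4 TPM, of which Marcksl1 made up 39.3%, and 6 of its 8 genes passed the filter. Among its members Gp2 had values of 0, 0, 1 and 1 and Sox8 was at 0. Ccl20, a chemokine that the epithelium over lymphoid follicles makes, had values of 91, 289, 526 and 611.

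Line 1 stood apart in 2 groups of genes. The fetal-like list, genes known from fetal and repairing epithelium, summed to 227, 482, 848 and 671 TPM, a 3.74-fold range. The stomach list summed to 67.8, 362, 397 and 776 TPM, an 11.5-fold range. The wide ranges contrast with the 1.17-fold range of the enterocyte list. In both lists line 1 was lowest.

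The stomach list rested on 4 genes. Tff1, the trefoil peptide of gastric pit cells, had values of 86, 1229, 1086 and 2785. Gkn1 and Gkn2, gastrokines of the same cells, had 7, 159, 74 and 390, and 2, 111, 60 and 253. Anxa10, an annexin of gastric epithelium, had values of 819, 1771, 3007 and 2872. Of 5 stomach genes that passed the filter on low values, line 1 was lowest for these 4 and line 2 for the other. Over all genes tested the shares were 32.0% and 27.7%. Among other genes of the list, Sox2 was at 0 in all lines and Muc5ac was near 0, with values of 0, 3, 1 and 2. The intrinsic factor gene Gif had values of 2, 2, 2 and 1 and the acid pump gene Atp4b 4, 2, 1 and 1. Outside the lists, Ctse, a gastric protease, had values of 18, 143, 124 and 336, with line 1 lowest. Dpcr1, a gastric mucin-like gene, had values of 31, 583, 660 and 715, also with line 1 lowest. These were picked after their values were seen. Gm15318, annotated on the strand opposite to Tff1 with which it shares 221 exon bases, had values of 87, 1223, 1082 and 2766, nearly those of Tff1, and reads over the shared bases could not be told apart.

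In the fetal-like list line 1 was the lowest for 8 of 11 genes that passed the filter and line 3 the highest for 10, beside 32.0% and 36.8% of all genes tested. Msln, a surface protein of mesothelium and injured epithelium, had values of 770, 4147, 5091 and 4968. Clu, a chaperone that marks revival stem cells, had values of 998, 2865, 4602 and 5506. Ly6a, also called Sca-1, had values of 79, 154, 788 and 241. The alarmin Il33, with values of 13, 151, 250 and 247, had line 1 far lowest as Msln did, whereas the YAP targets Cyr61, with values of 138, 121, 148 and 135, and Ctgf, with values of 50, 183, 190 and 30, did not. The basement membrane collagens Col4a1, with values of 53, 255, 1062 and 325, and Col4a2, with values of 51, 258, 991 and 305, are not in the list and were picked after their values were seen. They had line 1 lowest and line 3 highest.

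Some innate defence genes other than Paneth products were abundant. Of 17 listed genes 12 passed the filter on low values, and 5 had a mean value under 10. Reg1, a regenerating family protein, had values of 17844, 19095, 15049 and 12582 and ranked among the 30 highest genes per length. Pigr, which carries antibodies into the lumen, stood at 1419 ± 114 TPM and Lypd8, which keeps flagellated bacteria off the mucosa, at 884 ± 154 TPM. The acute phase genes Saa1 and Saa2 were at or near 0 and Lcn2 had values of 2, 0, 7 and 3. Genes with more spread were Nos2, the inducible nitric oxide synthase, with values of 156, 56, 137 and 393, and Duox2, an epithelial peroxide source, with 546, 161, 571 and 403.

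Most redox genes differed little between lines, as most genes did. Of 23 that passed the filter 17 (73.9%) differed by less than 1.5-fold. The share was 65.4% over all genes tested and 85.0% over genes with a mean value of 100 or more. The median difference was 1.19-fold, beside 1.32-fold and 1.23-fold in those 2 sets. Txn1, thioredoxin, stood at 1134 ± 75.9 TPM, Gpx1, a glutathione peroxidase, at 614 ± 109 TPM and Cat, catalase, at 409 ± 61.4 TPM. Prdx2, a peroxiredoxin, had values of 3979, 4147, 4102 and 4122. Nqo1, a quinone reductase and NRF2 target, had 1899, 3644, 3273 and 2714, and Gclc, which starts glutathione synthesis, 5353, 8926, 8615 and 6988. Line 1 was the lowest for 13 of the 23 genes, Nqo1 and Gclc among them, beside 32.0% of all genes tested. Hmox1, a heme oxygenase raised by oxidative stress, was low at 75, 66, 155 and 131.

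Per length, the top of the transcriptome was held by noncoding annotations, and only 9 of the 30 highest genes were protein-coding. Gm26917, annotated as a lincRNA at chr17:39843013-39846341, was the highest at 18260 TPM and had values of 487158, 499204, 398390 and 457033. Beside it, Gm42418 and the ribosomal RNA gene CT010467.1 lie on opposite strands and share 1822 exon bases, and their values, 69171 and 70942 in line 1, were nearly the same in each line. Together the 3 genes took 2.60% to 3.23% of all values. The mitochondrial ribosomal RNA mt-Rnr2 ranked 4 at 8334 TPM, and all mitochondrial genes together took 1.24% to 1.54% of values. Protein-coding genes held 91.9% ± 0.308 of values and 70.2% ± 0.449 of TPM.

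Of the 30 highest genes 12 were annotated as miRNA. Of the 18 highest miRNA annotations 17 lay over an exon of another gene. Mir3076 did so by only 1 base, of Tkt. Some lay on the strand opposite to the other gene, such as Gm22953 over Serf2 and Gm44454 over Hist1h2ak. Mir5121, with 9533 TPM, lies within Rpl13a (940 TPM), Gm26377 within the elongation factor gene Eef1a1 and Gm22133 within the ferritin gene Ftl1. Division by their short lengths, 57 to 141 bases for the 18, puts these annotations at the top. Mir5121 had values of 4806, 5875, 5320 and 5393, against a mean of 15068 for Rpl13a, so the host had more reads in all. To show the scale of such an annotation, the RefSeq hairpin of Mir5121 (GRCm38.p6, chr7:45126918-45126991, minus strand) and its mature miRNA, with the seed in capitals, are given.
Mir5121 hairpin: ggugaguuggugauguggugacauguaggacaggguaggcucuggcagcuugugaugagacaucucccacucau
mmu-miR-5121: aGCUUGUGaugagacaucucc

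The leading protein-coding genes combined translation, respiration and digestion. In order of level per length they were mt-Co1, a subunit of cytochrome oxidase, at 4393 ± 649 TPM, Eef1a1 at 4024 ± 322 TPM, the ribosomal stalk gene Rplp1 at 3133 TPM, mt-Nd1, a subunit of complex I, at 2969 TPM, Eef2, a further elongation factor, at 2847 TPM, Prap1, a secreted acidic protein of the gut, at 2563 TPM, and Lgals2, a galectin, at 2442 TPM. Ribosomal proteins held 5.53% ± 0.253 of TPM and made up 23 of the 100 highest protein-coding genes. Paneth, goblet and enterocyte list genes made up 11 of that 100. The 100 highest genes of any kind took 25.4% ± 1.02 of TPM, and 11404 protein-coding genes exceeded 1 TPM in all 4 lines.

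The 4 cultures were close over most of the transcriptome. Over 17120 genes the Pearson correlation of log2(value + 1) was 0.985 between lines 1 and 2 and 0.983 between lines 3 and 4, and 0.971 to 0.980 for pairs across these. These correlations are across genes, which are not independent replicates. Genes more than 2-fold apart numbered 765 for lines 1 and 2, the fewest, and 1409 for lines 1 and 3, the most. For lines 3 and 4 the number was 1164, above the 954 for lines 2 and 3 and the 911 for lines 2 and 4. By this count the pairs did not order as they did by correlation. For the 11709 genes with a mean value of 100 or more, the highest line exceeded the lowest by 1.23-fold at the median, 9947 of them (85.0%) differed by less than 1.5-fold and 144 (1.23%) by more than 4-fold. The chi-square per gene of the counts was 13.7 to 29.0 over the pairs, where counting error alone gives about 1, so no library was a copy of another.

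Agreement depended on level. Genes with a mean value from 10 to 30 had a median SD of 0.45 on the log2 scale, of which counting would give 0.33. From 1000 to 3000 the median SD was 0.11 and counting would give 0.03. At high levels the spread exceeded the counting error, and for 93.9% of genes between 3000 and 10000 it exceeded 2 times the counting error. Among 12 housekeeping genes used as references, 11 differed by less than 1.5-fold, beside 85.0% of genes with a mean value of 100 or more. Sdha, a subunit of succinate dehydrogenase, was the most even with values of 9061, 9302, 9044 and 9155, and the RNA polymerase gene Polr2a was less so with values of 6214, 3914, 3730 and 4082.

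The 10 most even genes with a mean value of 1000 or more were Nbr1, Atg13, Cenpv, Ddx1, Gorasp2, Taok1, Gm43863, Larp4b, Ubl3 and Gm26582. Nbr1, a receptor of selective autophagy, had values of 3824, 3813, 3826 and 3834, and Atg13, a starter of autophagosomes, 1063, 1053, 1056 and 1055. They were chosen for their small spread.

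**Figure D3:**
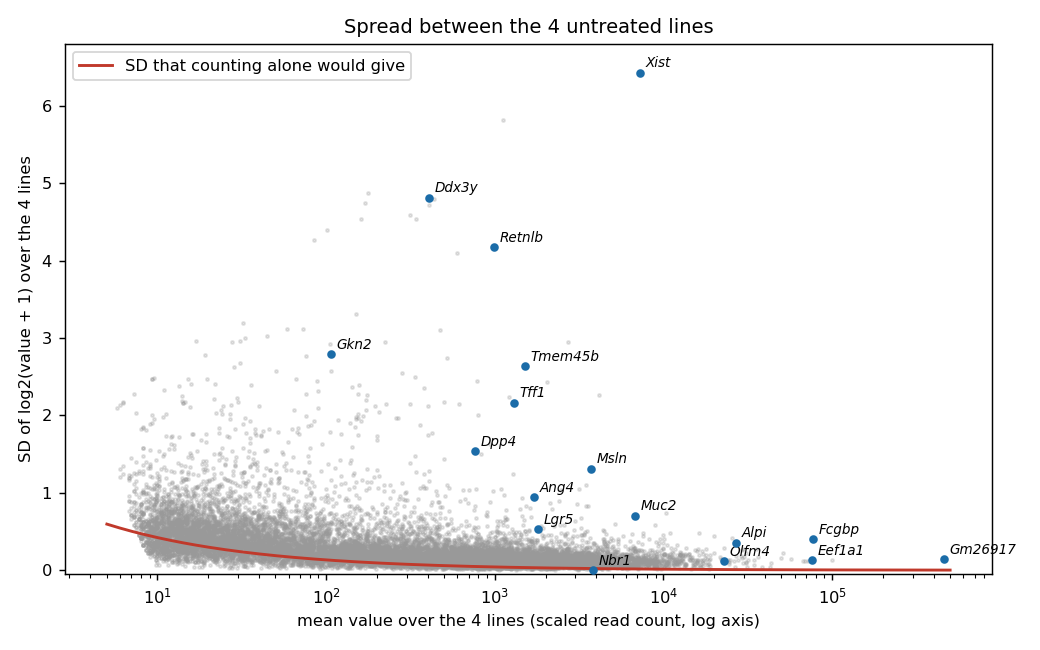
SD of log2(value + 1) over the 4 untreated lines for 17120 genes against the mean value (scaled read count, log axis), with a curve for the SD that read counting alone would give. Most genes lie below an SD of 0.5 while Xist, Ddx3y, Retnlb, Tmem45b, Tff1 and Dpp4 lie far above the curve.

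A small set of genes was nearly on or off by line. By the rule of at most 2 in some line and at least 200 in another, 14 genes qualified, of which 9 lie on the X or Y chromosome. The X genes Gm26992, Gm27927, Gm27520 and Gm27733 all lie within or across the Xist and Tsix locus. The remaining 5 were Gm14150, Rps4l, Gm7292, Gm10320 and the gastrokine gene Gkn2. Rps4l, a processed copy of a ribosomal protein gene on chromosome 6, had values of 3, 0, 43 and 1319. Gm14150, a processed pseudogene on chromosome 2 that shares 54.0% of its 100-base windows with other genes such as Tuba1b, had 1, 0, 285 and 361. Gm10320 had values of 134, 146, 321 and 1. Rps4l shares 2.35% of its 100-base windows with other genes and Gm10320 11.6%, both less than Gm14150. Copies of expressed genes can draw reads from their parents, so these values are uncertain, most of all for Gm14150. Whether this happened was not tested.

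Other genes set 1 line apart, and those named here beyond Retnlb were picked after their values were seen. Line 4 held Retnlb near 0 and had the lowest value for Ces1g, a carboxylesterase of lipid handling, at 1773, 1016, 854 and 130. Line 3 was low for B4galnt2, a glycosyltransferase of gut glycans, at 1464, 1109, 71 and 2188, and high for Ifi27l2b, an interferon-inducible gene, at 119, 237, 2646 and 179. Itih5, a matrix protein, was high in line 1 at 502, 28, 27 and 48. Among genes with a mean value of 100 or more, 19 were more than 4-fold lower in line 1 than in each other line and 1 was more than 4-fold higher. For line 2 the same counts were 2 and 0, for line 3 11 and 4, and for line 4 19 and 4. Line 2 was therefore the least apart by this count.

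**Figure D4:**
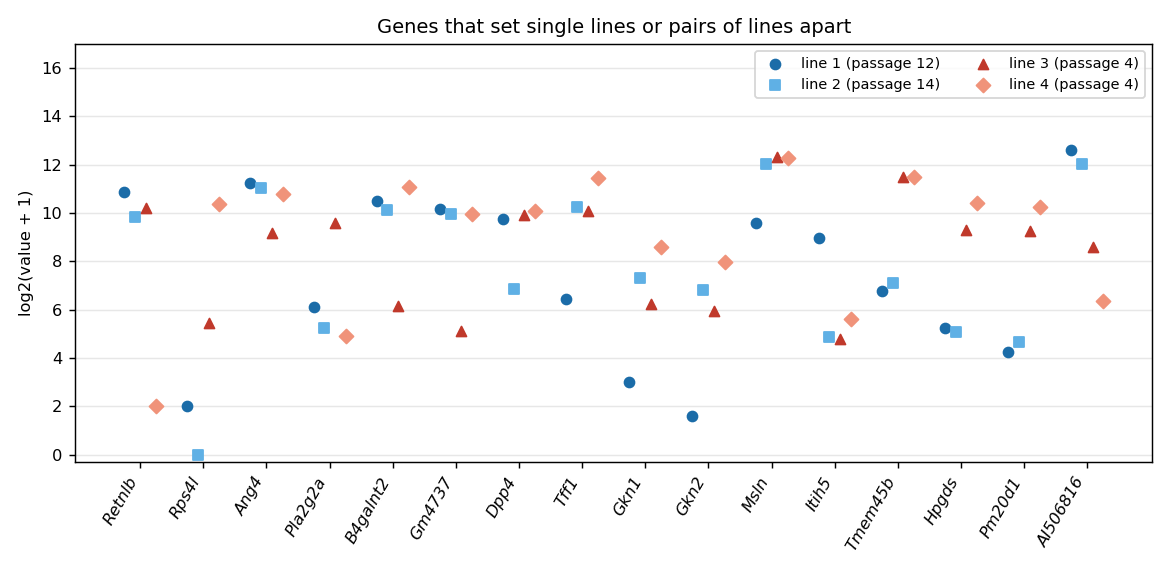
log2(value + 1) in each of the 4 untreated lines for genes that differ strongly between lines, 1 point per line. Retnlb is near 0 in line 4, Dpp4 is low in line 2, Tff1, Gkn1, Gkn2 and Msln are low in line 1, and Tmem45b, Hpgds and Pm20d1 separate lines 3 and 4 from lines 1 and 2.

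The sex-linked genes followed the sexes given by the study's methods. Xist, the RNA that silences 1 X chromosome in females, had values of 4, 7, 18979 and 10230. Ddx3y, a Y-linked helicase, had values of 676, 952, 9 and 0, Eif2s3y 714, 1018, 12 and 0 and Uty 566, 687, 10 and 0. Lines 1 and 2 thus expressed Y genes and lines 3 and 4 expressed Xist. In line 3 the 4 Y genes summed to 31, or 1.17% of the mean of lines 1 and 2, against 0 in line 4. Kdm5d, a Y-linked demethylase, had values of 137, 546, 0 and 0, and in line 1 it stood at 25.1% of line 2 while the other Y genes of line 1 stood at 70.1% to 82.4%. Genes known to escape X silencing had larger values in lines 3 and 4 but did not pass the test below, as in Eif2s3x with values of 1876, 1903, 3081 and 2816 and Kdm6a with 1083, 1067, 1848 and 1525.

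The comparison of passage 12 and 14 with passage 4 set lines 1 and 2 against lines 3 and 4. Passage, sex and animal cannot be told apart in it. By limma on log2(value + 1), 13 of 17120 genes (0.0759%) passed an adjusted p of 0.01 with a log2 difference of 1 or more, 12 of them lower at passage 12 and 14 and 1 higher. At an adjusted p of 0.05 with no minimum difference the number was 39 (0.228%), 28 lower and 11 higher, and 1188 had an unadjusted p under 0.05. In values simulated for this comparison over 16809 genes, 12 of 50 genes with a log2 difference of 1, 45 of 50 with 2 and 50 of 50 with 4 were found, with 0 false calls. The simulation gave all genes the same dispersion and held no differences particular to a single line. Its rates therefore cannot be carried over to these libraries, where such differences were present.

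Of the 13 genes, 6 lie at the Xist locus, and Xist itself had a log2 difference of -11.11 (limma adjusted p = 0.000253). Among the other 7, 4 code for proteins. Tmem45b, a transmembrane protein, had values of 108, 137, 2905 and 2858 and was lower at passage 12 and 14 by a log2 difference of -4.55 ± 0.15 (SE; limma adjusted p = 0.000253). Hpgds, which makes prostaglandin D2, had values of 37, 33, 627 and 1374, with a difference of -4.69 ± 0.36 (SE; limma adjusted p = 0.00899). Pm20d1, an enzyme that joins fatty acids to amino acids, had values of 18, 24, 611 and 1231, with a difference of -5.32 ± 0.36 (SE; limma adjusted p = 0.0056). For these 3 genes the lines did not overlap and the gap was more than 10-fold. The histone gene Hist1h2bj had values of 715, 716, 2175 and 2193, with a difference of -1.61 (limma adjusted p = 0.00484), but 40.5% of its 100-base windows recur in other histone genes. Gm8822, the gene that was higher at passage 12 and 14, had values of 265, 298, 27 and 24 and is an X-linked sequence that shares windows with Actr3.

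With any 1 of the 4 libraries left out, 0 genes passed by limma, and 745 to 1807 genes had an unadjusted p under 0.05. Leaving out a library leaves 1 line in an arm, which is assumed to vary like the others. With X and Y genes left out 3 passed, namely Tmem45b, Hist1h2bj and Gm14150, while Pm20d1 (limma adjusted p = 0.0107) and Hpgds (0.0166) did not. After quantile normalization Tmem45b was the only protein-coding gene outside the Xist locus to pass, and Pm20d1 (limma adjusted p = 0.0148), Hpgds (0.0197) and Hist1h2bj did not.

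**Figure D5:**
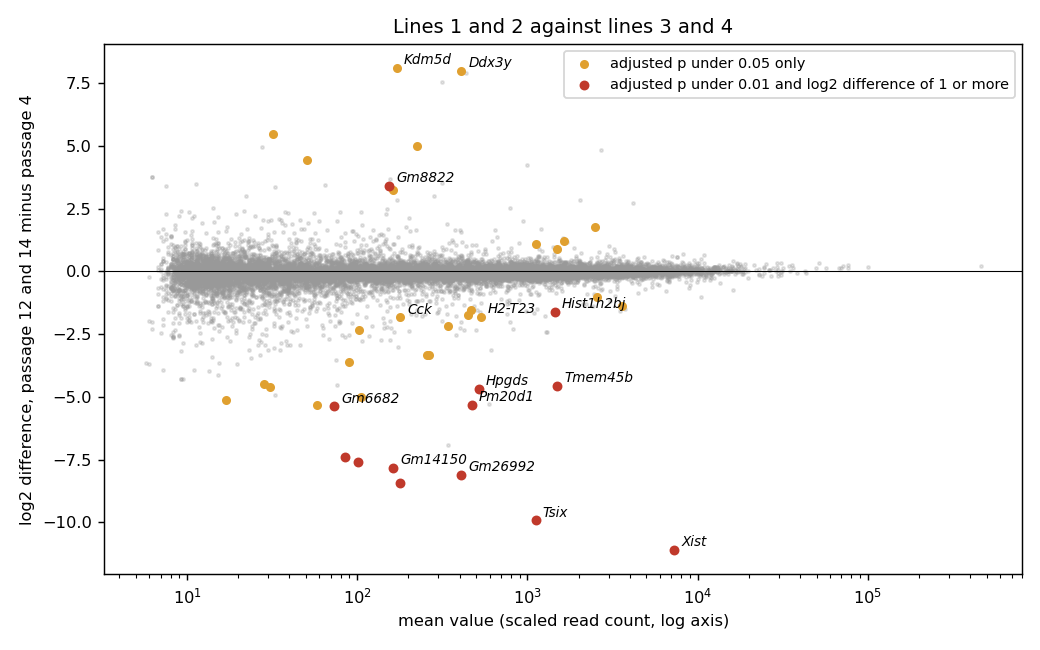
Log2 difference between lines 1 and 2 (passage 12 and 14) and lines 3 and 4 (passage 4) against the mean value (scaled read count, log axis) for 17120 genes. The 13 genes past the threshold are led by Xist and its neighbours, and most other genes lie near a difference of 0.

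None of the cell type lists held a gene past the threshold, beside 0.0759% of all genes tested. By the wider limit 1 gene did, Cck, with a difference of -1.83 (limma adjusted p = 0.0494), beside 0.228% of all genes. At shares this low, lists of this size would hold few calls or none, so these counts say little about the cell types. In the MHC list H2-T23, a nonclassical class I gene, had values of 204, 268, 758 and 902 and a difference of -1.82 (limma adjusted p = 0.0228). Over all genes tested the median difference was -0.05. The list medians were 0.05 for stem cell, 0.26 for Paneth cell, 0.29 for goblet cell and 0.08 for enterocyte genes, and -0.71 for enteroendocrine, -1.49 for fetal-like and -2.26 for stomach genes. Of the 19 enteroendocrine genes tested 12 were lower in both passage 12 and 14 lines than in both passage 4 lines, and 0 were higher, beside 23.7% of all genes lower and 10.2% higher in this way. For the fetal-like list 8 of 11 were lower in this sense and 0 higher. In the summed levels of the fetal-like and stomach lists line 2 lay closer to lines 3 and 4 than line 1 did.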

How the data were processed

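Total RNA of untreated organoids was sequenced as paired-end reads on a NovaSeq instrument. Per the labels and the study's methods, reads were trimmed with Trimmomatic 0.36, aligned with STAR 2.5.3a to GRCm38.p4 and counted per Ensembl gene with HTSeq 0.9.1. The strand setting of the counting was not given in the sources used here. The authors deposited a score per gene: the read count scaled to 20000000 per library and rounded up, with no division by length. Because these values are not raw counts, no count model was used.

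Only the 4 untreated columns were read, and the 18 treated columns were left out. The match of untreated to treated lines was not examined here. Depth was estimated from the spacing of low values and was tested on 10 simulated libraries, where it was at most 1.39% off. Levels per length used merged exon lengths (GENCODE M21), and 147 of 52636 genes had none. Lines at passage 12 and 14 were compared with lines at passage 4 by limma 3.58.1 (R 4.3.3), on log2(value + 1), with variances moderated along a trend in level. Genes had to reach 10 in 2 or more libraries, and p-values were adjusted by Benjamini-Hochberg. Fold changes on this scale understate changes of low genes. A call needed an adjusted p under 0.01 and a log2 difference of at least 1. An exact permutation test of 2 against 2 cannot go below p = 0.333. P-values measure only the spread between these libraries.

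Genes named in the text were members of 31 gene lists (438 genes), the 30 highest per length, the 20 most variable with a mean value of 100 or more, the 10 most even with a mean of 1000 or more, on and off genes, and the largest passage differences. Genes outside this rule are marked in the text as picked after their values were seen. The members and lists were chosen with earlier results of these data known. Sharing between genes was counted over windows of 100 bases taken every 10 bases of the exons. Promoters and miRNAs are from RefSeq. Alternatives covered the normalization, pseudocount, filter, threshold, gene length, sex chromosomes and each library left out. A gene of the enterocyte list is counted in its sums but not reported here.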

Additional observations from a re-analysis of the deposited data

Results flagged for a closer look

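Of 215 groups of 4 values looked at, 14 had 1 line far from the other 3 by Dixon's criterion, and chance flags about 1 in 20 groups. That rate does not hold for genes chosen by their spread, as Itih5, Ifi27l2b, Rps4l and Ubl3 were. Line 1 was the one apart in 9 of the 14. It was the highest for Axin2 at 5951, Mki67 at 11723, Spdef at 690, Cd24a at 6321, Polr2a at 6214 and Itih5 at 502, and the lowest for Txn1 at 7963. The summed levels of the tuft list, at 339.9 TPM, nearly all of it Cd24a, and of the colon list, at 6.68 TPM, were also highest in line 1. Line 2 was apart for Eef1a1, where it was highest at 86817. Line 3 was the highest for Pla2g2a at 769 and Ifi27l2b at 2646 and the lowest for Ubl3 at 2197. Line 4 was the highest for Rps4l at 1319.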

How the results depend on the processing

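The count of 13 genes in the passage comparison was the result that moved most. It was 39 at an adjusted p under 0.05 with no minimum difference, 22 with a pseudocount of 10, 6 after quantile normalization, 3 without X and Y genes, 0 with no filter and 0 to 0 with each library left out. All 13 genes were among the 22, and the 6 were among the 13. With no filter 2270 genes had an unadjusted p under 0.05. Of the gene differences looked at under these alternatives none changed sign. Fewer libraries lower the power by construction, and the cause of the other shifts was not tested.

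The levels of the lists depend on the scale. Without division by length the sums, scaled to 1000000, were 4592 for stem cell, 2137 for Paneth cell, 15487 for enterocyte and 202 for enteroendocrine genes. Over nuclear protein-coding genes alone they were 3600.1 for stem cell, 9698 for Paneth cell, 7835 for goblet cell, 19352 for enterocyte and 429 for enteroendocrine genes. With the longest transcript as length the Paneth sum was 5543. Of 31 lists, 22 stayed within 1 SD with the longest transcript, 12 without division by length and 2 over nuclear protein-coding genes, and in all 124 cases with a library left out. Enterocyte genes came first under all 4 scales. The median correlation of 0.978 was 0.986 with a pseudocount of 10, 0.966 over genes at 100 or more, and 0.972 to 0.984 with each library left out. The 100 highest genes took 22.7% of the total with the longest transcript as length and 14.9% without division by length. No paired analysis was possible because the 4 libraries form 1 group, each from its own line.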
